A study of Mus musculus with 19 samples.

Results

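The interferon-stimulated genes of the injury site were taken as a list of 39 mouse genes whose transcription follows interferon signalling in many cell types, and 38 of them were present among the 27998 genes of the count tables. Mx2 was the member without an entry and was not analysed here, so that each score below is a mean over 38 genes. The rule names the genes and uses no measured value, although the list was chosen with earlier results of these data known. Each of the 38 had at least 1 UMI in the cells kept.

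Single cell RNA was counted at the Achilles tenotomy site of mice that carry a scald burn of 30% of the body surface together with the tendon transection, an injury that leads to heterotopic ossification, the growth of bone in soft tissue. Day 0, day 7 and day 21 had 4 libraries each and day 3 had 3, and 4 more libraries came from mice given the CD47 activating peptide p7N3 at 10 mg/kg by daily intraperitoneal injection for 3 days before and 3 days after the injury. The study describes day 0 as without injury, whereas the labels list the burn for it as for every other library. C57 and LysmCre/Tgfb1fx/fx mice, the latter with Tgfb1 deleted where LysM drives Cre in myeloid cells, are named for the series as a whole and neither is assigned to a library, so that genotype cannot be told apart from the groups. The labels name no vehicle for the day 7 libraries, the study compares p7N3 with PBS at 1 week, and the harvest day of p7N3 replicate 4 comes from the study and not from its labels. The study describes 3 repeats of each time, run to gauge variability between mice, whereas the labels tie no library to an animal, so that the p-values measure the spread between libraries as labelled.

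Type I interferons signal through a receptor shared by all of them to a transcription factor complex that includes STAT2 and IRF9 and binds the interferon-stimulated response element (ISRE) in the promoters of antiviral genes. Interferon gamma acts at a different element, the gamma-activated site (GAS), and its targets include Irf1, the guanylate-binding proteins, the chemokines Cxcl9 and Cxcl10 and the immunoproteasome. At wound sites these genes are known from infiltrating myeloid cells and from endothelium, and USP18 limits the response by acting on the receptor and by removing ISG15 from proteins.

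The ISRE core was searched for in the RefSeq promoters of the members, since it is the element of the type I response described above. Its letters were not used to choose them. The members were listed as genes that follow interferon, however, so that an excess of the core among them is not independent support for the list. Each promoter window held 300 bases, from 250 before to 50 after the gene's start, and both strands were read for GAAA, NN and GAAA in a row, with any base at N, which is TTTC, NN and TTTC on the other strand. The core was in 14 (46.7%) of the 30 members with a promoter there, against 3.99% of 27025 genes. The GAS letters TTCNNNGAA were in 6 of the 30 (20%), against 9.55% of all genes, and where the core and GAS overlap both were counted. In 12 members a core lay before the start, and in 5 of these, Isg15, Ifit1, Ifit3, Bst2 and Gbp3, there was more than 1. No core was found in the window of 16 members, among them Irf1, Irf7, Cxcl9, Psmb8 and Ifit2, which says only that these letters were not in these 300 bases. The stretches that follow are shown for an antiviral effector, the ISG15 modifier, a chemokine and a guanylate-binding protein whose levels are described next. They are from GRCm38.p6, read 5′ to 3′ in the direction of the gene, with the cores in capitals.
Isg15, chr4:156200830-156200941, minus strand: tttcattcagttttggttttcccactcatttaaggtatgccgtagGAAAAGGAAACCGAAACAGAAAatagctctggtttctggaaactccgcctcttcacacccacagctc
Ifit1, chr19:34640740-34640858, plus strand: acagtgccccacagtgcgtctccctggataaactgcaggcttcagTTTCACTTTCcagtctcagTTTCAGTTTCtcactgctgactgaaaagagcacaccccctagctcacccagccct
Ifit3, chr19:34583328-34583461, plus strand: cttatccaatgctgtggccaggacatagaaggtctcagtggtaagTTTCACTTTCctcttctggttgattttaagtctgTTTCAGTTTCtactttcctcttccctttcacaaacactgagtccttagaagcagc
Rsad2, chr12:26456518-26456617, minus strand: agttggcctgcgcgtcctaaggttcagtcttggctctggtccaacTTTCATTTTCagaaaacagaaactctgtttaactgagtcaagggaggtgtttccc
Cxcl10, chr5:92349048-92349139, minus strand: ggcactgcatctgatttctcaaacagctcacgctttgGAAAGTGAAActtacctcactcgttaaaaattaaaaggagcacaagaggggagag
Gbp2, chr3:142620559-142620658, plus strand: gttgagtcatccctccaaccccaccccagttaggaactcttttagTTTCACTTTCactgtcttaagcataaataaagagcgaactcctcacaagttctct
In Isg15 3 overlapping cores began at positions -78 to -66 from the start, and in Ifit1 and Ifit3 there were 2 separate cores. Rsad2, Cxcl10 and Gbp2 had 1 core each, at -120, -213 and -59.

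The libraries held 39541 cells after filtering, and a library had between 3019467 and 5383855 UMIs at day 0, between 25243407 and 33704901 at day 3, between 33235893 and 39870492 at day 7, between 11064153 and 29233343 at day 21 and between 25386054 and 35450868 with p7N3. Cells were clustered without the members and named from marker lists as monocyte/macrophage-like (14460 cells), stromal-like (11688), endothelial-like (2844) and 10 smaller classes, and 862 cells stayed unnamed. In every class UMIs were summed per library and given as CPM of all UMIs of that class in that library. Day 0 was the shallowest group in total and in monocyte/macrophage-like sums, with 285090 to 640169 UMIs in such a sum. Among endothelial-like sums day 3 was shallower, with 747408 to 861009 UMIs against 904212 to 1154268 at day 0. Pairs of libraries shared less than 1% of the barcodes of the smaller of them.

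The highest group mean of the interferon score, the mean over the members of log2(CPM + 1), was among the named classes that of the endothelial-like cells of day 0, and the later times of that class lay below it without overlap. The endothelial-like score was 5.39 ± 0.09 (SD, n = 4) at day 0, 3.62 ± 0.35 (n = 3) at day 3, 4.38 ± 0.27 (n = 4) at day 7 and 4.89 ± 0.20 (n = 4) at day 21, and no library of a time overlapped with one of another time, by a narrow margin between day 7 and day 21. The monocyte/macrophage-like score was 4.83 ± 0.31 at day 0, 4.76 ± 0.03 at day 3, 4.99 ± 0.39 at day 7 and 4.51 ± 0.26 at day 21, with overlap between day 0 and each later time. The stromal-like score was the lowest of these 3 classes at every time, at 3.54 ± 0.13 at day 0, 2.82 ± 0.09 at day 3, 3.25 ± 0.37 at day 7 and 3.29 ± 0.21 at day 21. Day 3 lay below all day 0 stromal-like libraries, and day 7 and day 21 overlapped with day 0. With p7N3 the scores were 4.92 ± 0.22, 3.12 ± 0.16 and 4.22 ± 0.28 (n = 4 each) in the monocyte/macrophage-like, stromal-like and endothelial-like sums, each overlapping with day 7. No test was run on the score. Replicate 4, which was deposited later than replicates 1 to 3, had the lowest score of day 7 and of p7N3 in monocyte/macrophage-like and stromal-like cells. Without day 7 replicate 4 the score of day 7 minus that of day 0 was 0.317 in monocyte/macrophage-like cells (0.165 with it) and -0.157 in stromal-like cells (-0.285 with it).

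**Figure D1:**
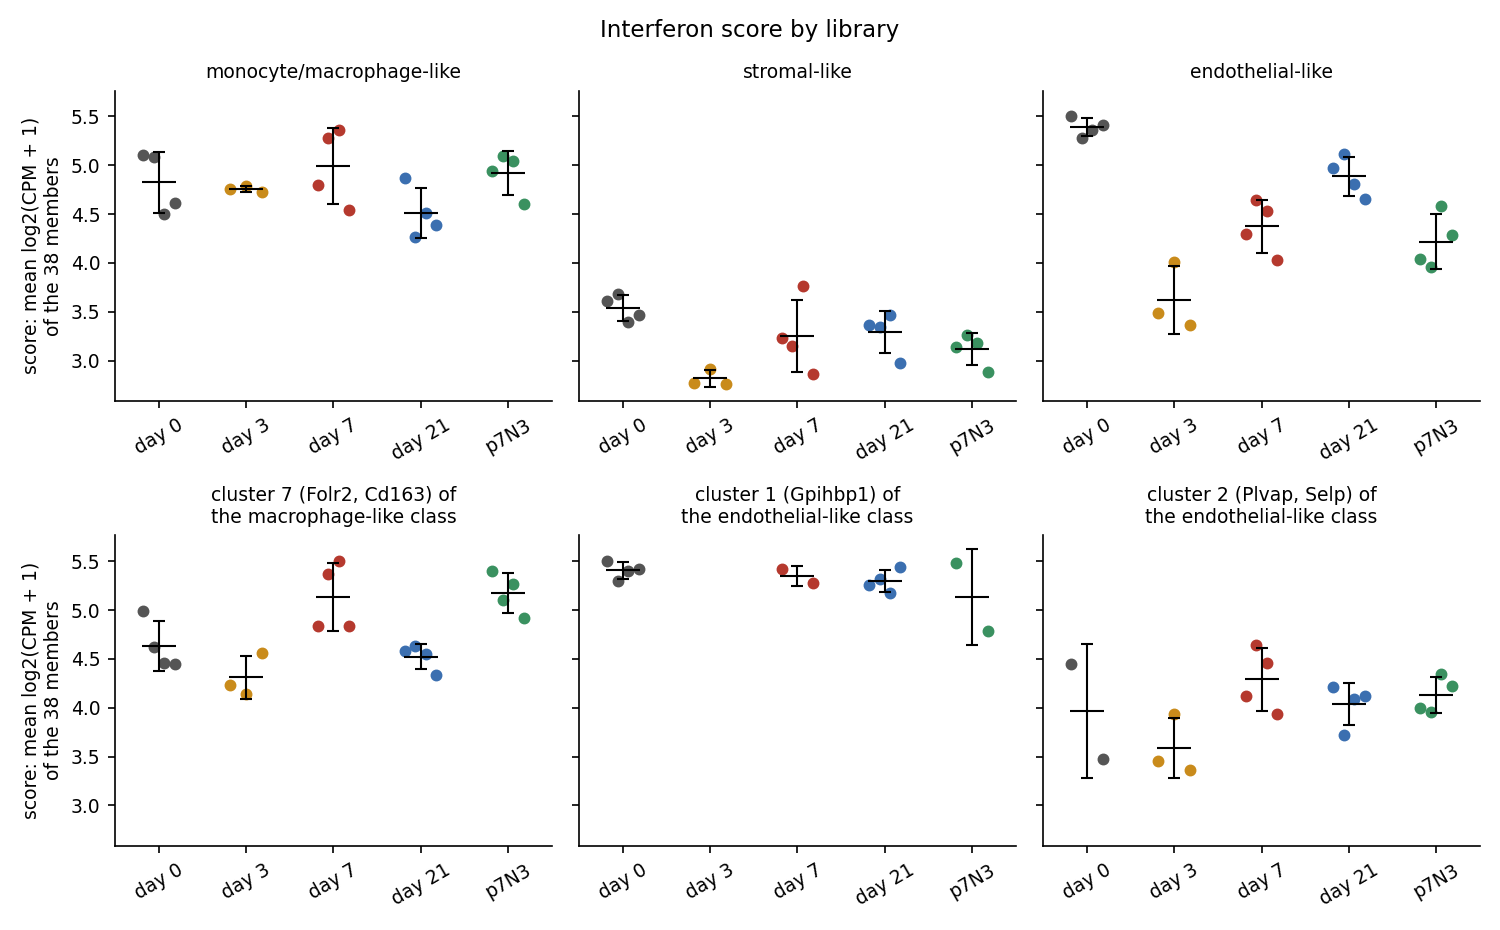
Interferon score, the mean log2(CPM + 1) of 38 members, per library (points) and group (bar, mean ± SD), on the vertical axis, against group on the horizontal axis, in 3 classes and in clusters 7, 1 and 2. The endothelial-like panel falls from 5.39 at day 0 to 3.62 at day 3 and stands at 4.89 at day 21. In cluster 1 alone the groups lie between 5.13 and 5.41, without a day 3 sum. Its day 7 and p7N3 groups have 2 libraries each.

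The classes did not hold the same clusters at each time, and the part of this in the score was not tested. Cluster 1, with the capillary marker Gpihbp1 among its leading genes, made up 95.3% of the endothelial-like cells at day 0 and 57.7% at day 21. Cluster 2, led by the venular genes Plvap, Selp and Ackr1, made up 96.4% at day 3, 92.7% at day 7 and 42.3% at day 21. The score of cluster 1 alone was 5.41 at day 0, 5.35 at day 7 (2 libraries) and 5.30 at day 21, and cluster 1 had no day 3 sum. That of cluster 2 alone was 3.96 at day 0 (2 libraries), 3.58 at day 3, 4.29 at day 7 and 4.04 at day 21. Within each of these clusters the group means at hand lay closer together than in the class as a whole. The 2 day 7 sums of cluster 1 were shallow, and a member without a UMI lowers the score. In day 7 replicate 3 this held for Stat2, Cmpk2, Oas2 and Cxcl9, among others. The score therefore cannot show whether the members changed between day 0 and day 7 within cluster 1. Monocyte/macrophage-like cells were mostly cluster 7 (Folr2, Cd163) at day 0, with 77.5% of the class, clusters 5 (Arg1) and 4 (Ly6c2, Chil3) at day 3, with 52.5% and 42.8%, and clusters 10 (Ms4a7, C1q genes), 27 (Gpnmb, Spp1) and 3 (Retnla) at day 7, with 42.7%, 19.6% and 17.2%. Cluster 7 was again the largest at day 21, with 36.3%. Stromal-like cells were 96.1% cluster 0 at day 0, 90.4% cluster 26 at day 3 and mainly clusters 22 and 24 at day 7, and 63.8% cluster 22 at day 21.

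Levels of single members differed widely between the classes. Ifi27l2a, a small protein induced by interferon, supplied 36.2% of all member UMIs in monocyte/macrophage-like cells and 25.6% in stromal-like cells. Bst2, the tetherin that holds budding virus at the membrane, supplied 24.1% in endothelial-like cells. At day 7, 36 of 38 members were higher in the monocyte/macrophage-like sums of a library than in its stromal-like sums and 0 were lower, when 37.2% and 40.5% of all genes were higher and lower. The median log2 difference was 2.41 over the members and -0.04 over all genes. The largest differences were those of Oas3 (5.36), Mx1 (4.37), Rsad2 (4.12), Oasl1 (3.77), Psmb9 (3.68) and Trim30a (3.61). Cxcl9 at 0.67 (adjusted p = 0.1) and Ifi44 at 0.37 (adjusted p = 0.36) did not pass. Against endothelial-like sums 26 members were higher and 3 lower, when 34.1% and 34.5% of all genes were. Mx1 (6.01), Ifi27l2a (5.13) and Oas3 (5.0) led in monocyte/macrophage-like cells, ahead of Zbp1 (4.01), Oas2 (3.71) and Ifit2 (2.65). Ifi44 (-2.92), Gbp2 (-0.78) and Gbp3 (-0.67) were higher in endothelial-like cells. Among the members tested, Bst2 at 0.13 (adjusted p = 0.25) and Ifi35 at -0.08 (adjusted p = 0.53) did not pass. The calls of Gbp2, Cxcl9 and Rsad2 against endothelial-like cells were lost without the library as a block.

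**Figure D2:**
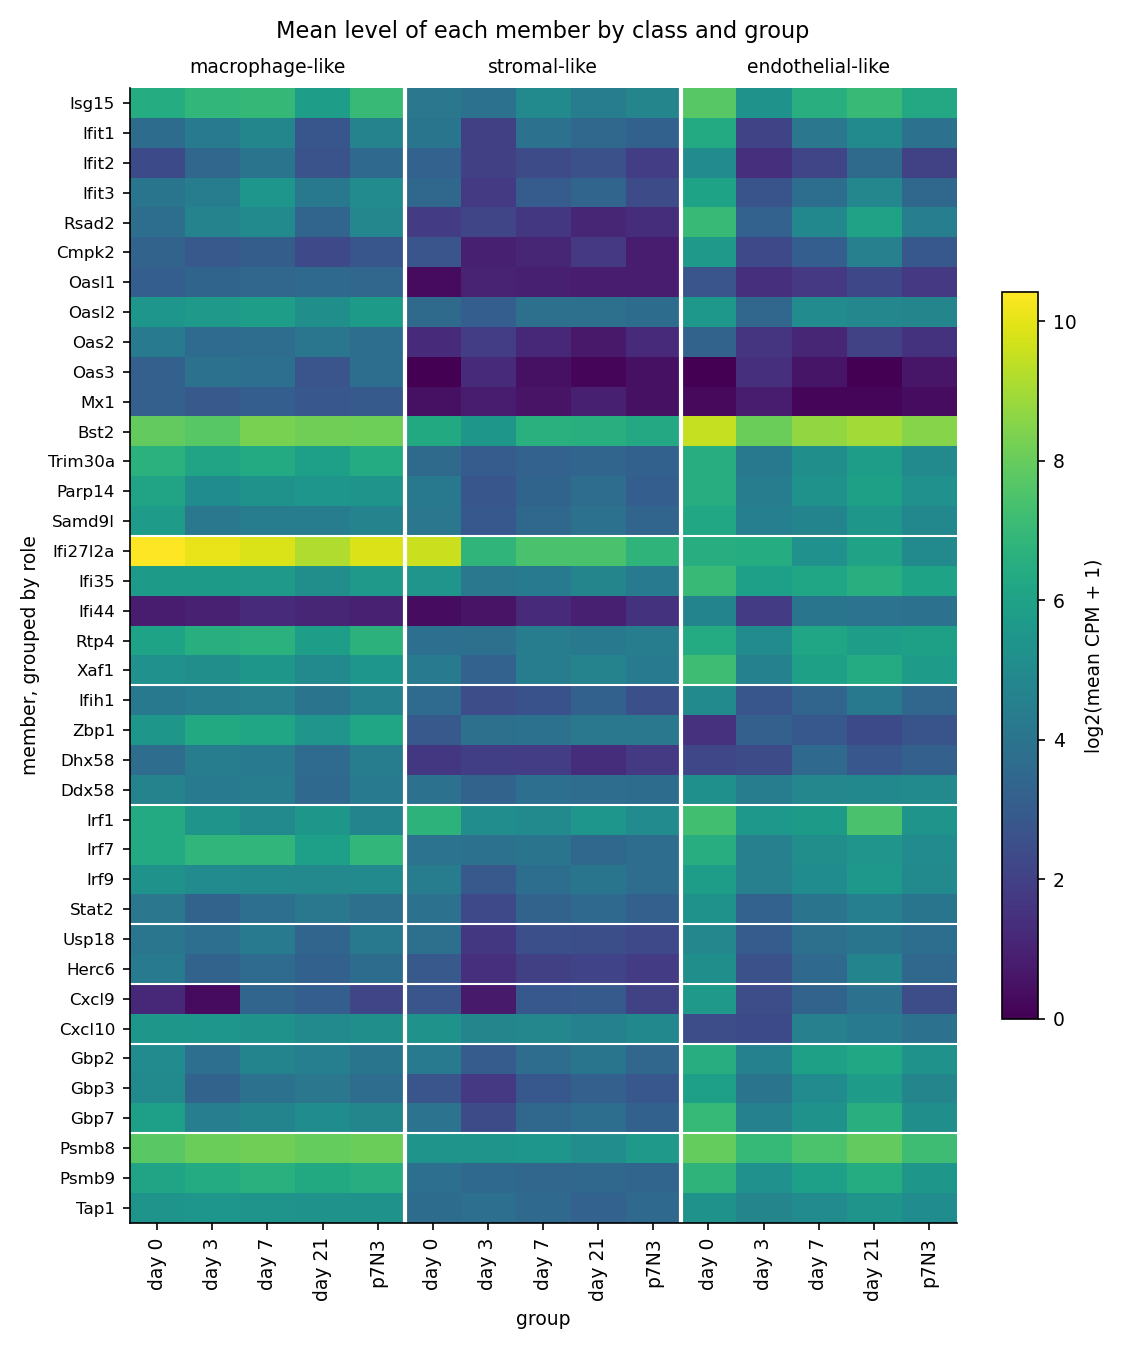
Heat map of log2(mean CPM + 1) for the 38 members, in rows by role, in the monocyte/macrophage-like, stromal-like and endothelial-like sums of the 5 groups, in columns. Ifi27l2a is the brightest member in monocyte/macrophage-like and stromal-like columns, and Bst2 in endothelial-like columns.

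The endothelial-like class held the broadest change, with 29 members lower at day 3 than at day 0, a count set beside all genes below. Among the antiviral effectors Rsad2, the radical SAM enzyme viperin, stood at 147, 118, 109.5 and 139.7 CPM at day 0, 2.37, 14.7 and 9.29 at day 3, 31.4, 24, 31.8 and 25 at day 7, 65.4, 92.2, 39.4 and 57.4 at day 21 and 13.4, 6.27, 36.1 and 27 with p7N3. No library of a time overlapped with a library of another time, and day 3 was lowest. Its log2 fold change against day 0, on TMM-normalised CPM from edgeR's quasi-likelihood test with Benjamini-Hochberg adjustment over all genes tested, was -3.78 ± 0.30 (SE, adjusted p = 1.9e-07) at day 3, -2.18 ± 0.14 (SE, adjusted p = 2.1e-09) at day 7 and -1.0 at day 21. Ifit3, which binds viral RNA with its relatives, was 57.2, 48.9, 90.7 and 65 CPM at day 0, 2.37, 10.7 and 3.48 at day 3, 10.7, 16.5, 17.2 and 6.66 at day 7, 23, 37.5, 29.6 and 18.8 at day 21 and 3.35, 7.32, 17.8 and 11.6 with p7N3. All later libraries were below all of day 0, and day 21 was above all of day 3 and day 7. Isg15, the ubiquitin-like modifier, was 262, 157, 182 and 232 CPM at day 0, 34.4, 60.2 and 24.4 at day 3, 76.8, 111, 111 and 64.9 at day 7, 133, 144, 123 and 112 at day 21 and 56.9, 74.7, 94.2 and 82.5 with p7N3, with day 3 below and day 21 above every day 7 library, the latter by a small margin. Bst2 was 719, 778, 625 and 759 CPM at day 0, 264, 294 and 254 at day 3, 359, 484, 471 and 357 at day 7, 485, 497, 534 and 467 at day 21 and 350.2, 373, 432 and 334 with p7N3. Every later library was below every day 0 library, and day 7 and day 21 overlapped.

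At day 3 against day 0, 31 members were tested in endothelial-like cells, and 0 were higher and 29 lower, when 29.2% of all genes were higher and 28.7% lower. The median log2 fold change was -2.05 over the members and -0.03 over all genes. The largest falls were those of Ifit1 (-4.48), Ifit2 (-4.05), Rsad2 (-3.78), Cmpk2 (-3.53), Ifit3 (-3.46) and Cxcl9 (-3.26). Each of the 11 antiviral effectors, the 4 transcription factors and the 3 guanylate-binding proteins tested was lower. Ifi27l2a at 0.05 (adjusted p = 0.86) and Tap1, the peptide transporter of antigen presentation, at -0.47 (adjusted p = 0.058) did not pass. Oasl1, Oas2, Oas3, Mx1, Zbp1, Cxcl10 and Dhx58 had too few counts to be tested. At day 7, 1 of 32 members was higher and 27 were lower than at day 0, when 29.4% and 29.3% of all genes were, with the largest falls in Ifit2 (-3.23), Cmpk2 (-2.6), Cxcl9 (-2.4), Ifit3 (-2.32), Ifit1 (-2.31) and Rsad2 (-2.18). Rtp4 at -0.24, Gbp2 at -0.56 (adjusted p = 0.08), Tap1 at -0.29 and the RNA sensor Ddx58 at -0.38 did not pass. At day 21, 1 of 32 was higher and 21 were lower, when 14% and 12.8% of all genes were, led by Cxcl9 (-1.7), Ifit2 (-1.51), Ifit1 (-1.44), Ifit3 (-1.28), Cmpk2 (-1.12) and Irf7 (-1.07). Psmb8 at -0.00, Irf1 at 0.20 and Psmb9 at -0.27 did not pass at day 21. These 3 comparisons share the day 0 libraries.

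Transcription factors, chemokines and the antigen processing genes did not all follow the effectors. Irf1, the gamma-induced activator, was 182, 128, 185 and 116 CPM at day 0, 32, 76.3 and 30.2 at day 3, 50.7, 41.6, 60.5 and 46.6 at day 7, 161, 228, 147 and 149.6 at day 21 and 29, 37.1, 45.5 and 51.8 with p7N3. Day 3 and day 7 were below all of day 0, whereas day 21 overlapped with day 0, with replicate 2 above its range, and was above every day 7 library, with a log2 fold change between those times of 1.8 ± 0.16 (SE, adjusted p = 2.7e-05). Irf7, the regulator of the interferon alpha genes, was 81.4, 92.5, 96.2 and 88.1 CPM at day 0, 24.9, 28.1 and 12.8 at day 3, 22.9, 45.9, 47.1 and 22.5 at day 7, 40.6, 45.6, 47.5 and 33.8 at day 21 and 33.5, 21.9, 36.1 and 35.9 with p7N3. No later library reached day 0. Cxcl9, a chemokine for T cells that interferon gamma induces, was 50.2, 43.7, 24.3 and 69.4 CPM at day 0, 2.37, 5.35 and 5.81 at day 3, 1.79, 27.7, 3.82 and 2.5 at day 7, 21.8, 18.2, 9.86 and 7.5 at day 21 and 4.46, 1.57, 9.95 and 2.11 with p7N3. Its day 7 replicate 2 was above the rest of the group and within the range of day 0. Cxcl10, which binds the same receptor, moved the other way, at 13, 1.04, 1.11 and 2.67 CPM at day 0, 2.37, 2.68 and 6.97 at day 3, 15, 55, 15.9 and 4.16 at day 7, 31.8, 23.3, 9.86 and 6.43 at day 21 and 10.6, 18.3, 15.2 and 12.7 with p7N3. It was the member that was higher than day 0 at day 7, at 2.26 ± 0.72 (SE, adjusted p = 0.013), and at day 21, at 1.9 ± 0.66 (SE, adjusted p = 0.047), although day 0 replicate 1 overlapped with both times and both calls were lost with DESeq2. Gbp2, a guanylate-binding protein that attacks the membranes around intracellular pathogens, was 93.6, 93.6, 84 and 83.7 CPM at day 0, 16.6, 33.5 and 18.6 at day 3, 45, 114, 39.5 and 38.3 at day 7, 92.5, 77, 67.2 and 59.5 at day 21 and 34, 41.3, 51.8 and 34.4 with p7N3. Day 3 was below every library of the other groups, and day 7 replicate 2 was above all of day 0. Psmb8, a catalytic subunit of the immunoproteasome, was 244, 258, 244 and 253 CPM at day 0, 122, 138 and 121 at day 3, 162, 190.4, 206 and 146 at day 7, 301, 214, 198 and 252 at day 21 and 146, 137, 163 and 135 with p7N3. Day 3 and day 7 were below all of day 0, and day 21 overlapped with it. Usp18, the brake on the receptor, was 28.6, 21.8, 27.6 and 30.3 CPM at day 0, 13, 5.35 and 3.48 at day 3, 10, 11.7, 16.6 and 15.8 at day 7, 12.4, 25.3, 13.4 and 10.2 at day 21 and 8.36, 13.1, 19.9 and 8.46 with p7N3. All of day 3 and day 7 were below day 0, and day 21 overlapped with day 0 through replicate 2. Ifi27l2a was 89.2, 101, 69.7 and 101 CPM at day 0, 92.5, 120.4 and 48.8 at day 3, 39.6, 49.6, 50.3 and 9.16 at day 7, 60.1, 86.1, 69 and 33.8 at day 21 and 40.7, 14.6, 30.4 and 36.5 with p7N3, lower at day 7 than at day 0 in every library and not at day 3.

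From day 3 to day 7, 11 of 29 members rose and 1 fell in endothelial-like cells, when 7.15% and 8.8% of all genes did. The median over the members was 0.74 and that over all genes 0.01. The rises were led by Ifi44 (2.54), Ifit1 (2.21), Rsad2 (1.62), Oasl2 (1.6), Xaf1 (1.3) and Isg15 (1.13), and Ifi27l2a was the member that fell, at -1.26 ± 0.37 (SE, adjusted p = 0.037), a call lost with DESeq2. Psmb8 at 0.38 (adjusted p = 0.087), Ifi35 at 0.21 and Irf1 at 0.04 did not pass. Day 3 rested on 27 to 29 endothelial-like cells per library, and the count fell from 12 to 6 without day 3 replicate 1 and to 4 without day 3 replicate 3. From day 7 to day 21, 17 of 33 members rose and 0 fell, when 14.9% and 13.1% of all genes did, and the median was 0.56 against 0.01 over all genes. After Irf1 the rises were Ifit2 (1.72), Cmpk2 (1.48), Gbp7 (1.21), Rsad2 (1.18) and Herc6 (1.11). Bst2 at 0.28 (adjusted p = 0.082), Xaf1 at 0.47 (adjusted p = 0.064) and Gbp2 at 0.34 did not pass.

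Within single clusters fewer members passed. In cluster 1 alone, 1 of 34 members was higher and 0 lower at day 7 than at day 0, when 1.9% and 2.02% of all genes were, and the 1 was Cxcl10 at 4.85 ± 0.62 (SE, adjusted p = 4.9e-05). At day 21 against day 0 in cluster 1, 0 of 31 were higher and 3, Cxcl9, Ifit1 and Ifit2, were lower, when 4.83% and 4.09% of all genes were. At day 21 against day 7, 0 of 31 members passed in cluster 1 by edgeR, when 0.0908% of all genes were called higher and 0.136% lower. An unadjusted p under 0.05 was found for 7 members, and the share of all genes at that limit is not given here. At day 3 against day 0 in cluster 2 alone, 0 of 24 members were higher and 3, Herc6 (-3.05), Irf1 (-3.04) and Parp14 (-2.65), were lower, when 6.07% and 2.7% of all genes were. In the same cluster, 2 of 33 members were lower at day 7 than at day 0, Irf1 (-2.94) and Parp14 (-1.78), when 5.21% of all genes were higher and 2.65% lower. At day 21, 0 of 21 members passed, when 0.379% of all genes were called higher and 0.258% lower. Of the 21 members 4 had an unadjusted p under 0.05, again without the share of all genes at that limit. The day 7 group had 2 libraries with 10 or more cells of cluster 1, as had day 0 for cluster 2, and the class as a whole gave 28 calls for the same times. The 2 day 7 sums of cluster 1 were shallow. Together they held 75 UMIs of Isg15 and 27 of Cxcl10, against 851 and 16 in the 4 day 0 sums. Few calls at that depth do not show a lack of change in this cluster. From day 3 to day 7, times at which cluster 2 held over 90% of the class, 12 of 28 members rose and 1 fell in cluster 2 alone, when 7.13% and 8.82% of all genes did. Ifi44 rose by 2.4, Ifit1 by 2.02 and Rsad2 by 1.66 there. From day 7 to day 21 in cluster 2, 1 of 31 rose, Irf1 by 2.01, and 2 fell, Oasl2 and Rtp4, when 10.5% and 8.9% of all genes did. Summed CPM of 16 monocyte/macrophage markers, all with UMIs at each time, in the endothelial-like sums lay between 299.7 and 554.2 at day 0, between 1511 and 2035 at day 3, between 313.8 and 1003 at day 7 and between 242.7 and 1395 at day 21, against 28370 or more in each monocyte/macrophage-like sum, and its part in the result was not tested.

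**Figure D3:**
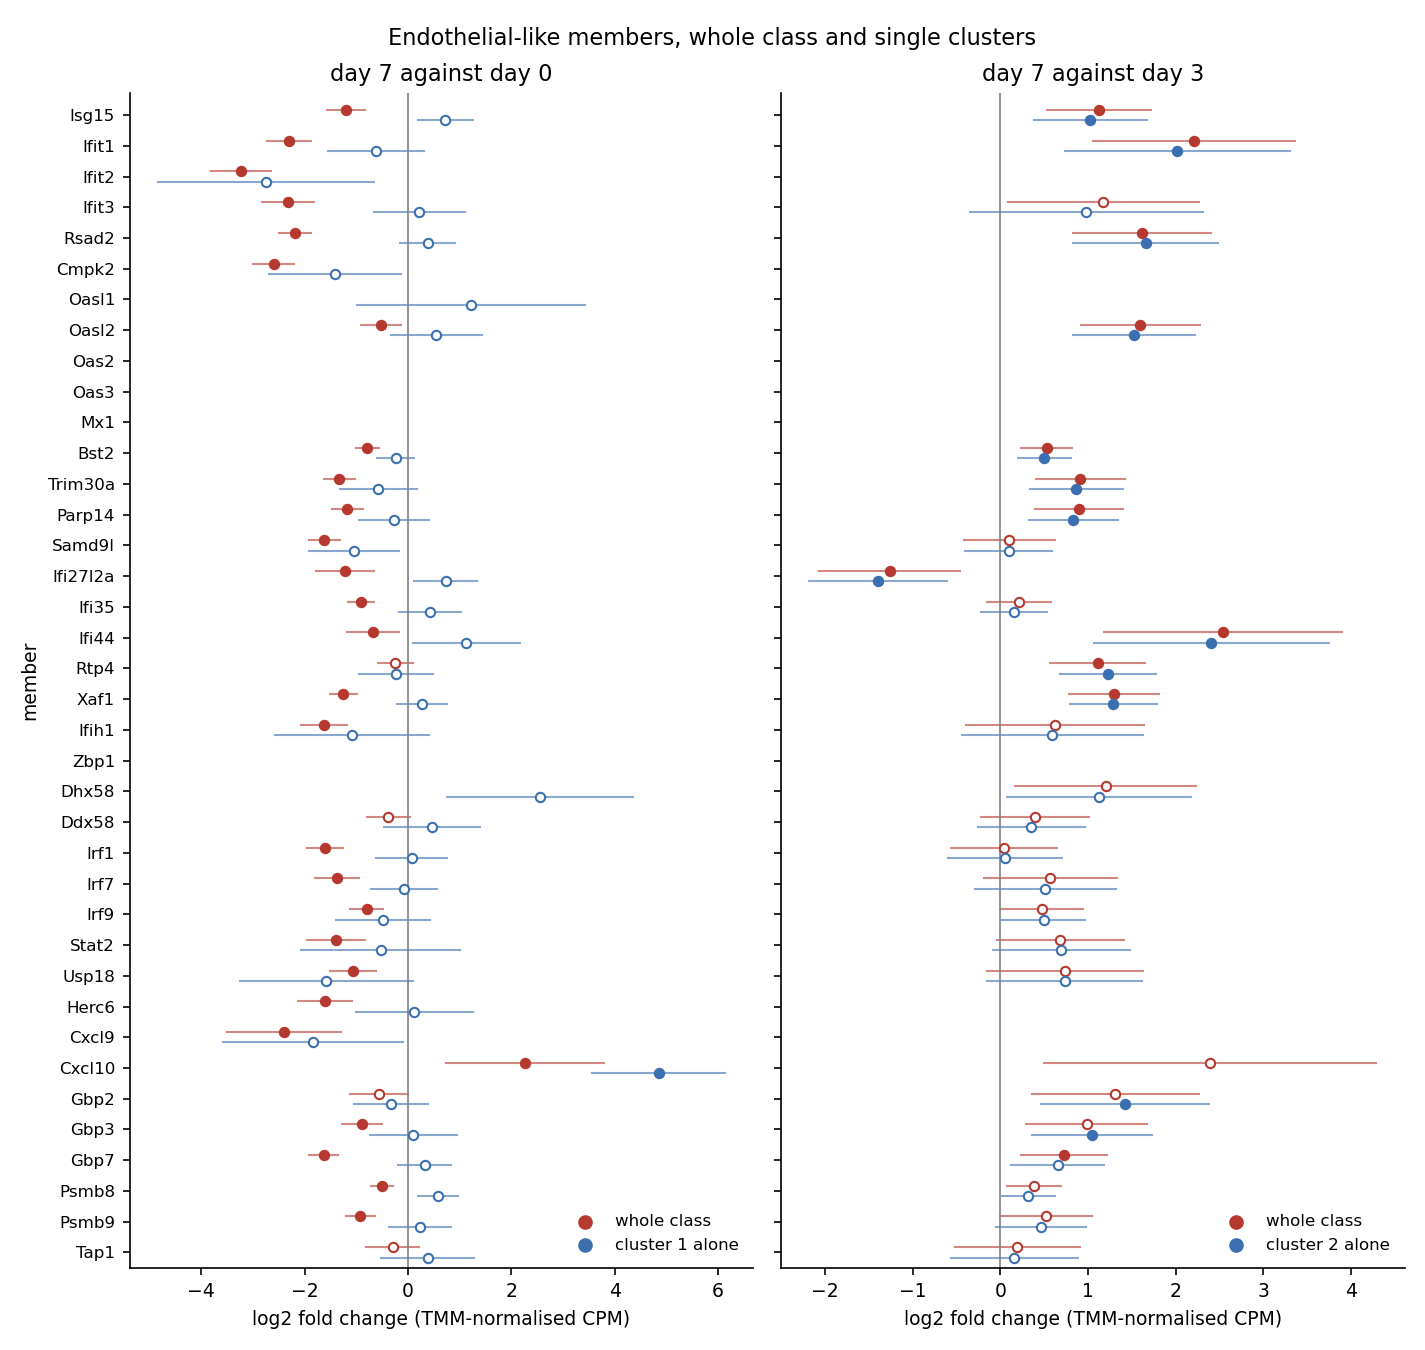
Log2 fold change (points) with its 95% interval (lines) for each member, at left for day 7 against day 0 in the endothelial-like class and in cluster 1 alone, at right for day 7 against day 3 in the class and in cluster 2 alone, with filled points for an adjusted p under 0.05. At left the class lies below 0 for most members and cluster 1 alone, from 2 shallow day 7 libraries, near 0, with Cxcl10 at 4.85. At right the class and cluster 2 lie close to each other.

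Members moved in both directions in monocyte/macrophage-like cells. Counts over all members tested are set beside the shares of all genes below, for each comparison of these cells. Isg15 was 112, 87.7, 71.5 and 74.7 CPM at day 0, 133, 114 and 106 at day 3, 96.7, 133, 173 and 85.2 at day 7, 68.4, 31.9, 66.3 and 50.4 at day 21 and 174, 149.8, 114 and 84.1 with p7N3. Every day 21 library was below every library of the other groups, and day 3 and day 7 overlapped with day 0. Rsad2 was 14.1, 14, 6.5 and 15.6 CPM at day 0, 16.4, 21.2 and 35.3 at day 3, 21.3, 26.2, 48.2 and 23 at day 7, 13.5, 4.56, 5.73 and 14.3 at day 21 and 42.9, 24.3, 28.9 and 13.3 with p7N3. Every day 7 library was above every library of day 0 and of day 21. Its log2 fold change was 1.38 ± 0.45 (SE, adjusted p = 0.023) at day 7 against day 0 and -1.55 ± 0.37 (SE, adjusted p = 0.014) at day 21 against day 7. Irf7 was 82.8, 98.2, 39 and 103 CPM at day 0, 142, 124 and 76.3 at day 3, 93.4, 148, 155 and 64.4 at day 7, 63.4, 45.6, 64.7 and 56.8 at day 21 and 112, 129, 144 and 86 with p7N3. Its day 21 libraries overlapped with day 7 through replicate 4 of the latter. Usp18 was 17.2, 24.6, 9.75 and 12.4 CPM at day 0, 9.91, 11.9 and 16.5 at day 3, 15.2, 16.1, 27.8 and 12.7 at day 7, 10.7, 9.12, 7.37 and 11.1 at day 21 and 19.8, 18.8, 18.5 and 12.8 with p7N3. All of day 21 was below all of day 7, at a log2 fold change of -0.89 (adjusted p = 0.063) that did not pass, and the other times overlapped. Ifit3 was 28.1, 17.5, 9.75 and 6.22 CPM at day 0, 18.1, 24.4 and 17.5 at day 3, 26.2, 54.5, 74.8 and 19 at day 7, 17.1, 7.3, 19.6 and 26 at day 21 and 26.2, 34.1, 42.1 and 23.8 with p7N3. Replicates 2 and 3 of day 7 were the highest of all and replicates 1 and 4 were within the range of day 0.

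Irf1 was lower than at day 0 at each later time in the same cells, and the 3 guanylate-binding proteins were all lower at day 3, Gbp7 and Gbp3 at day 7 and Gbp7 at day 21. Irf1 was 75, 102, 68.3 and 84 CPM at day 0, 33.9, 42.7 and 46.2 at day 3, 21.9, 34.2, 36.9 and 29.7 at day 7, 49.9, 54.7, 41.8 and 31.3 at day 21 and 24.7, 24.6, 22.1 and 29.3 with p7N3. No later library reached the lowest of day 0, and the log2 fold changes against day 0 were -0.94 ± 0.18 (SE, adjusted p = 0.00077) at day 3, -1.2 ± 0.20 (SE, adjusted p = 0.00021) at day 7 and -0.79 ± 0.19 (SE, adjusted p = 0.006) at day 21. Gbp2 was 34.4, 52.6, 16.2 and 21.8 CPM at day 0, 19.7, 10.1 and 9.06 at day 3, 12.3, 50.5, 24.3 and 12.2 at day 7, 37.1, 15.5, 23.7 and 10.6 at day 21 and 14.9, 20.6, 12.8 and 13.1 with p7N3. Each later time overlapped with day 0. Cxcl9 was counted with 1, 0, 1 and 0 UMIs in the 4 day 0 sums, 6, 4 and 1 at day 3, 23, 196, 33 and 9 at day 7, 40, 0, 2 and 0 at day 21 and 3, 36, 34 and 17 with p7N3. Most of it at day 7 was in replicate 2 and nearly all of it at day 21 in replicate 1, and a sum with 0 allows up to 3 UMIs. Cxcl10 was 28.1, 77.2, 48.8 and 24.9 CPM at day 0, 22.1, 28.2 and 78.6 at day 3, 32.9, 51.4, 56.3 and 20.9 at day 7, 34.2, 28.3, 8.19 and 51 at day 21 and 38.2, 43.4, 27 and 31.7 with p7N3. All groups overlapped. Psmb8 was 234, 218, 192 and 208 CPM at day 0, 307, 254 and 239.5 at day 3, 268, 344, 298 and 231 at day 7, 294, 211, 258 and 218 at day 21 and 259, 296, 293 and 242 with p7N3. Every day 3 library was above every day 0 library. Bst2 was 269, 256, 202 and 233 CPM at day 0, 244, 213 and 174 at day 3, 281, 372, 433 and 207 at day 7, 301, 274, 305 and 270.1 at day 21 and 280.4, 339, 260.2 and 238 with p7N3. The highest value was that of day 7 replicate 3. Ifi27l2a was 1453, 1519, 1196 and 1301 CPM at day 0, 1273, 1102 and 831 at day 3, 826, 1109, 1076 and 593 at day 7, 571, 588, 639 and 544 at day 21 and 973, 1266, 922 and 618 with p7N3. All day 21 libraries were below all of day 0 and day 3.

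At day 3 against day 0, 29 members were tested in monocyte/macrophage-like cells, and 3 were higher and 8 lower, when 24.5% of all genes were higher and 28.3% lower, so that the share of members that fell was near that of all genes and the share that rose was under it. Dhx58, a helper of the RNA sensors, rose by 0.79, Isg15 by 0.42 and Psmb8 by 0.35. The 3 guanylate-binding proteins all fell, Gbp3 by 1.75, Gbp7 by 1.44 and Gbp2 by 1.24 on the log2 scale. Samd9l, a restriction factor, at -1.6, Parp14 at -1.01 and Irf1 were the next largest falls. Ifi27l2a at -0.32 (adjusted p = 0.054), Bst2 at -0.17 and Irf7 at 0.53 (adjusted p = 0.11) did not pass. At day 7 against day 0, 5 of 36 were higher and 5 lower, when 18.3% and 17% of all genes were. Rsad2, Isg15 (0.65), Psmb9 (0.64), Bst2 (0.63) and Psmb8 (0.62) were higher, and Samd9l (-1.21), Irf1, Gbp7 (-1.04), Gbp3 (-1.01) and Parp14 (-0.53) lower. Ifi27l2a at -0.39 (adjusted p = 0.08), Irf7 at 0.72 (adjusted p = 0.071) and Trim30a at -0.13 did not pass. The 10 calls became 16 without day 7 replicate 4, 6 without day 0 replicate 2 and 5 without day 0 replicate 3. At day 21 against day 0, 1 of 27 was higher and 6 lower, when 12.2% and 13.4% of all genes were. Bst2 (0.36) was higher, and Samd9l (-1.37), Ifi27l2a (-1.12), Irf1, Gbp7 (-0.77), Trim30a (-0.70) and Parp14 (-0.51) lower. Psmb8 at 0.30, Psmb9 at 0.27 and Isg15 at -0.61 (adjusted p = 0.052) did not pass.

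From day 3 to day 7, 5 of 37 members rose and 0 fell in monocyte/macrophage-like cells, when 14.5% and 15.5% of all genes did. They were Cxcl9 (5.2 ± 1.21 (SE, adjusted p = 0.0089)), Ifit3 (1.16), Bst2 (0.69), Stat2 (0.59), a subunit of the ISRE-binding complex, and Parp14 (0.36). Ifi27l2a at -0.18, Psmb8 at 0.16 and Isg15 at 0.11 did not pass. This count was the least stable: it was 12 without day 7 replicate 4, 1 without day 3 replicate 1 or day 7 replicate 2, and 2 without day 3 replicate 2, day 3 replicate 3 or day 7 replicate 3. From day 7 to day 21, 0 of 36 rose and 8 fell, when 7.28% and 6.83% of all genes did, and the median was -0.50 over the members and 0.02 over all genes. Ifit1 (-2.11), Rsad2 (-1.55), Isg15 (-1.21), Oas3 (-1.21), Irf7 (-1.04) and Rtp4 (-0.85) fell most, followed by Oasl2 and Ifi27l2a. Bst2 at -0.23, Psmb8 at -0.27 and Psmb9 at -0.31 did not pass. The count was 17 without day 7 replicate 4 and 5 without day 21 replicate 2.

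Single monocyte/macrophage-like clusters were compared as well, since the class changed its make-up. In cluster 7, 8 of 19 members were higher and 1 lower at day 7 than at day 0, when 13.2% and 13.9% of all genes were. Zbp1 (1.27), a sensor of Z-form nucleic acid, Isg15 (1.14), Irf7 (1.06), Bst2 (0.95), Psmb9 (0.89) and Rtp4 (0.83) led, and Irf1 (-1.04) was the lower one. From day 3 to day 7 in cluster 7, 15 of 27 rose and 0 fell, when 13% and 11.8% of all genes did, with Ifit1 (2.82), Rsad2 (2.24), Cxcl10 (2.01), Oasl2 (1.79), Ifit3 (1.57) and Parp14 (1.43). Cluster 7 was a small part of the class at day 3, when clusters 5 and 4 held most of it. From day 7 to day 21, 0 of 24 rose and 4 fell there, Irf7 (-1.38), Ifi27l2a (-1.35), Isg15 (-1.26) and Trim30a (-0.64), when 3.03% and 1.92% of all genes did. Against day 0, cluster 7 had 1 of 14 members higher, Ifi27l2a (0.76), and 5 lower at day 3, when 26.3% and 27.5% of all genes were. It had 2 of 22 higher, Bst2 (0.51) and Psmb8 (0.50), and 2 lower, Samd9l (-1.31) and Ifi27l2a (-0.66), at day 21, when 7.4% and 8.15% of all genes were. In cluster 3, 8 of 21 members were higher at day 7 than at day 0 and 1 lower, when 6.79% and 6.51% of all genes were, with Rtp4 (2.09), Psmb9 (1.98), Irf7 (1.86) and Isg15 (1.48) higher and Irf1 (-1.27) lower. In cluster 10, 12 of 36 fell from day 7 to day 21 and 0 rose, when 4.27% and 5.28% of all genes did, led by Rsad2 (-3.58), Oas3 (-2.76) and Ifit1 (-2.75). From day 3 to day 7 in cluster 4, Gbp3 (1.48), Isg15 (1.11), Ifi27l2a (0.89) and Trim30a (0.84) rose, and no other member tested there passed. The shares of all genes called in cluster 4 are not given, so that these calls are not a result about the members.

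Stromal-like cells had 19 members lower at day 3 than at day 0, a count set beside all genes below, and Ifi27l2a fell most. It stood at 591, 654, 880.3 and 909.6 CPM at day 0, 119, 123 and 88.8 at day 3, 168, 188, 233 and 94 at day 7, 192, 241, 162 and 88.8 at day 21 and 114, 147, 113 and 55.4 with p7N3. The lowest day 0 library was above every later library, with log2 fold changes of -2.66 ± 0.19 (SE, adjusted p = 1.3e-07) at day 3, -2.12 ± 0.25 (SE, adjusted p = 1.5e-05) at day 7 and -2.12 at day 21. Irf1 was 121, 102, 114 and 88.1 CPM at day 0, 31.1, 34.2 and 35.2 at day 3, 33, 25.6, 36.2 and 27.9 at day 7, 47.2, 56, 40.6 and 31.8 at day 21 and 30.6, 32.3, 24.2 and 41 with p7N3, again with all of day 0 above all later libraries. Usp18 was 12.8, 19.4, 8.59 and 12.1 CPM at day 0, 0.958, 2.84 and 2.89 at day 3, 3.5, 3.56, 8.99 and 3.12 at day 7, 5.56, 5.4, 5 and 2.79 at day 21 and 3.29, 4.43, 4.46 and 3.4 with p7N3, and only day 7 replicate 3 reached the range of day 0. Ifit3 was 3.65, 17.2, 9.66 and 9.95 CPM at day 0, 2.55, 2.29 and 2.37 at day 3, 4.13, 6.02, 13.2 and 5.53 at day 7, 5.42, 17.6, 8.74 and 5.89 at day 21 and 2.97, 4.89, 4.13 and 5.44 with p7N3. Day 3 was below every library of the other times, and day 7 and day 21 overlapped with day 0. Gbp2 was 23.7, 19.4, 17.2 and 17.1 CPM at day 0, 6.49, 7.58 and 7.49 at day 3, 15.1, 11.8, 14.7 and 7.93 at day 7, 17.3, 17.9, 15.9 and 10.6 at day 21 and 8.91, 10.1, 11.6 and 8.77 with p7N3. Day 3 was lowest, and all of day 7 was above it. Cxcl9 was 15, 1.14, 0.537 and 6.39 CPM at day 0, 0.532, 0.948 and 0.526 at day 3, 4.76, 9.25, 8.69 and 2.19 at day 7, 19.2, 3.12, 1.25 and 3.11 at day 21 and 3.88, 4.13, 2.43 and 1.85 with p7N3. All day 7 libraries were above all of day 3. Zbp1 was higher than at day 0 at each later time, at 5.01, 10.3, 7.51 and 2.84 CPM at day 0, 17.8, 14 and 8.94 at day 3, 13.1, 12.6, 17.7 and 12.1 at day 7, 20.4, 13.9, 18.7 and 14.8 at day 21 and 17.8, 20.8, 15.7 and 13.5 with p7N3.

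At day 3 against day 0, 1 of 30 members was higher and 19 were lower in stromal-like cells, when 33.3% of all genes were higher and 32.9% lower, and the median was -1.22 over the members and 0.01 over all genes. Zbp1 rose by 1.3, and the largest falls were those of Ifi27l2a (-2.66), Cmpk2 (-2.52), Usp18 (-2.35), Ifit1 (-2.29), Herc6 (-1.79) and Ifit3 (-1.78). Psmb8 at 0.14, Cxcl10 at -0.57 and Isg15 at -0.11 did not pass. At day 7, 1 of 34 was higher and 13 lower than at day 0, when 27.7% and 26.1% of all genes were. Zbp1 rose by 1.23, and Cmpk2 (-2.15), Ifi27l2a (-2.12), Irf1 (-1.76), Usp18 (-1.35), Ifih1 (-1.16) and Herc6 (-1.13) led the falls. Bst2 at 0.34, Psmb8 at 0.10 and Cxcl10 at -0.55 did not pass. At day 21, 2 of 30 were higher and 7 lower, when 16.3% and 16.5% of all genes were, with Zbp1 (1.52) and Rtp4 (0.50) higher and Ifi27l2a, Usp18 (-1.43), Irf1 (-1.26), Cmpk2 (-1.22), Herc6 (-0.95) and Ifit2 (-0.68) lower. The summed CPM of 16 monocyte/macrophage markers, all with UMIs at each time, in the stromal-like sums lay between 205.4 and 313.5 at day 0, between 2014 and 2166 at day 3, between 682.6 and 1108 at day 7 and between 387.3 and 522 at day 21, and its part in the result was not tested.

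From day 3 to day 7, 12 of 38 members rose and 2 fell in stromal-like cells, when 20.6% and 19.1% of all genes did. Cxcl9 (3.07), Ifit1 (2.12), Ifit3 (1.52), Gbp3 (1.34), Gbp7 (1.22) and Stat2 (1.13) were the largest rises, and the 3 guanylate-binding proteins all rose. Oas3 (-1.79) and Oas2 (-1.17), synthetases of the signal that activates RNase L, fell. Ifi27l2a at 0.55, Bst2 at 1.06 (adjusted p = 0.058) and Psmb8 at -0.02 did not pass. The 14 calls became 7 without day 3 replicate 1, 7 without day 3 replicate 3 and 9 without day 7 replicate 3. From day 7 to day 21, 3 of 35 rose, Ifih1 (0.68), Irf1 (0.53) and Ifi35 (0.49), and 1 fell, Oas2 (-1.13), when 18.4% and 17.2% of all genes did. The 4 calls were 0 to 6 when 1 library was left out, with 2 without day 7 replicate 1 or replicate 4, 1 without day 21 replicate 3 and 0 without day 7 replicate 2, day 21 replicate 1 or day 21 replicate 2. In cluster 0 alone, 6 of 21 members were higher and 1 lower at day 7 than at day 0, when 8.95% and 6.72% of all genes were, and Ifi27l2a was among the higher ones (1.38), opposite to the class as a whole. It was 613, 736, 906 and 971 CPM in cluster 0 at day 0 and 1131, 4370, 994 and 1494 at day 7, with replicate 2 far above the rest and day 7 above day 0 by a small margin. Without day 7 replicate 2, a fit added after the data were seen, the log2 fold change was 0.70 ± 0.19 (SE, adjusted p = 0.026). At day 21 against day 0 in cluster 0, Ifi27l2a (-0.75) and Ifit1 (-1.84) were lower and 0 of 23 were higher, when 2.87% and 2.53% of all genes were. In cluster 22, 12 of 31 fell from day 7 to day 21 and 0 rose, when 7.78% and 6.59% of all genes did, with Ifi27l2a (-1.82), Ifit1 (-1.49) and Irf7 (-1.46) among them. From day 3 to day 7 in cluster 26 alone no member was called higher, and Ifi27l2a was called lower (-2.61, adjusted p = 0.0049). The shares of all genes called there are not given, so that this count is not a result about the members. Cluster 26 had 2 day 7 libraries with 10 or more cells, and neither had more than 14. So few cells cannot show whether the rises of the class also took place within this cluster.

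The change from day 0 to day 7 was compared between the stromal-like and the monocyte/macrophage-like class by an interaction of class and group with the library as a block. For 11 of 37 members it was more positive in monocyte/macrophage-like cells and for 0 in stromal-like cells, when 9.97% and 10.2% of all genes differed in these directions. The largest differences of the log2 fold change were those of Ifit2 (2.86), Cmpk2 (2.15), Usp18 (1.85), Ifih1 (1.77), Ifi27l2a (1.77) and Ifit3 (1.74).

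With p7N3 no member passed the threshold against day 7 in the 3 classes by edgeR, and neither did any other gene. The study describes a macrophage cluster with an interferon signature in its PBS group, among those that differed from the p7N3 group. Sums over whole classes, from clusters built without the members, do not show whether such a subset of cells changed. In monocyte/macrophage-like cells 0 of 37 members and 0% of 10918 genes were called higher or lower by edgeR, 862 genes and 0 members had an unadjusted p under 0.05, and DESeq2 called 18 genes higher and 5 lower, with 0 members among them. In stromal-like cells 0 of 36 members and 0% of 13251 genes were called, 1479 genes and 3 members had an unadjusted p under 0.05, and DESeq2 called 61 genes higher and 26 lower and 0 members. In endothelial-like cells 0 of 32 members and 0% of 9655 genes were called, 804 genes and 2 members had an unadjusted p under 0.05, and DESeq2 called 1 gene higher and 3 lower and 0 members. The median log2 fold change of the members was -0.03, -0.15 and -0.25 in these classes, against -0.0041, -0.00031 and -0.0055 over all genes. In the test of the difference between monocyte/macrophage-like and stromal-like effects 0 of 38 members and 0% of all genes passed, and 3 members had an unadjusted p under 0.05, a limit at which the share of all genes is not given here. The smallest p of the 3 was that of Ifi27l2a, whose log2 fold change with p7N3 was more positive in monocyte/macrophage-like cells by 0.70 (95% interval 0.44 to 0.96, adjusted p = 0.1). It passed the threshold in the fit without the filter on low counts and in no other fit run.

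The intervals show what size of change these libraries leave undecided. With p7N3 the monocyte/macrophage-like log2 fold change of Isg15 was 0.09 (95% interval -0.44 to 0.62), that of Irf7 0.02 (95% interval -0.52 to 0.55), that of Ifi27l2a 0.05 (95% interval -0.43 to 0.53) and that of Psmb8 -0.08 (95% interval -0.35 to 0.19). Wider intervals were those of Rsad2, -0.08 (95% interval -0.77 to 0.60), Gbp2, -0.68 (95% interval -1.55 to 0.19), and Cxcl9, -1.48 (95% interval -3.33 to 0.38). The values given above overlapped between p7N3 and day 7 for each of these genes. In stromal-like cells the 3 members with an unadjusted p under 0.05 were Ifit2, -0.63 (95% interval -1.19 to -0.07), Cxcl9, -1.0 (95% interval -1.92 to -0.07), and Ifit1, -0.75 (95% interval -1.49 to -0.00), and Ifi27l2a was at -0.66 (95% interval -1.34 to 0.02). In endothelial-like cells they were Psmb9, -0.39 (95% interval -0.68 to -0.10), and Psmb8, -0.30 (95% interval -0.54 to -0.06). These failed the adjustment, with adjusted p = 0.42 for stromal-like Cxcl9, 0.5 for Psmb9 and 0.53 for Psmb8.

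**Figure D4:**
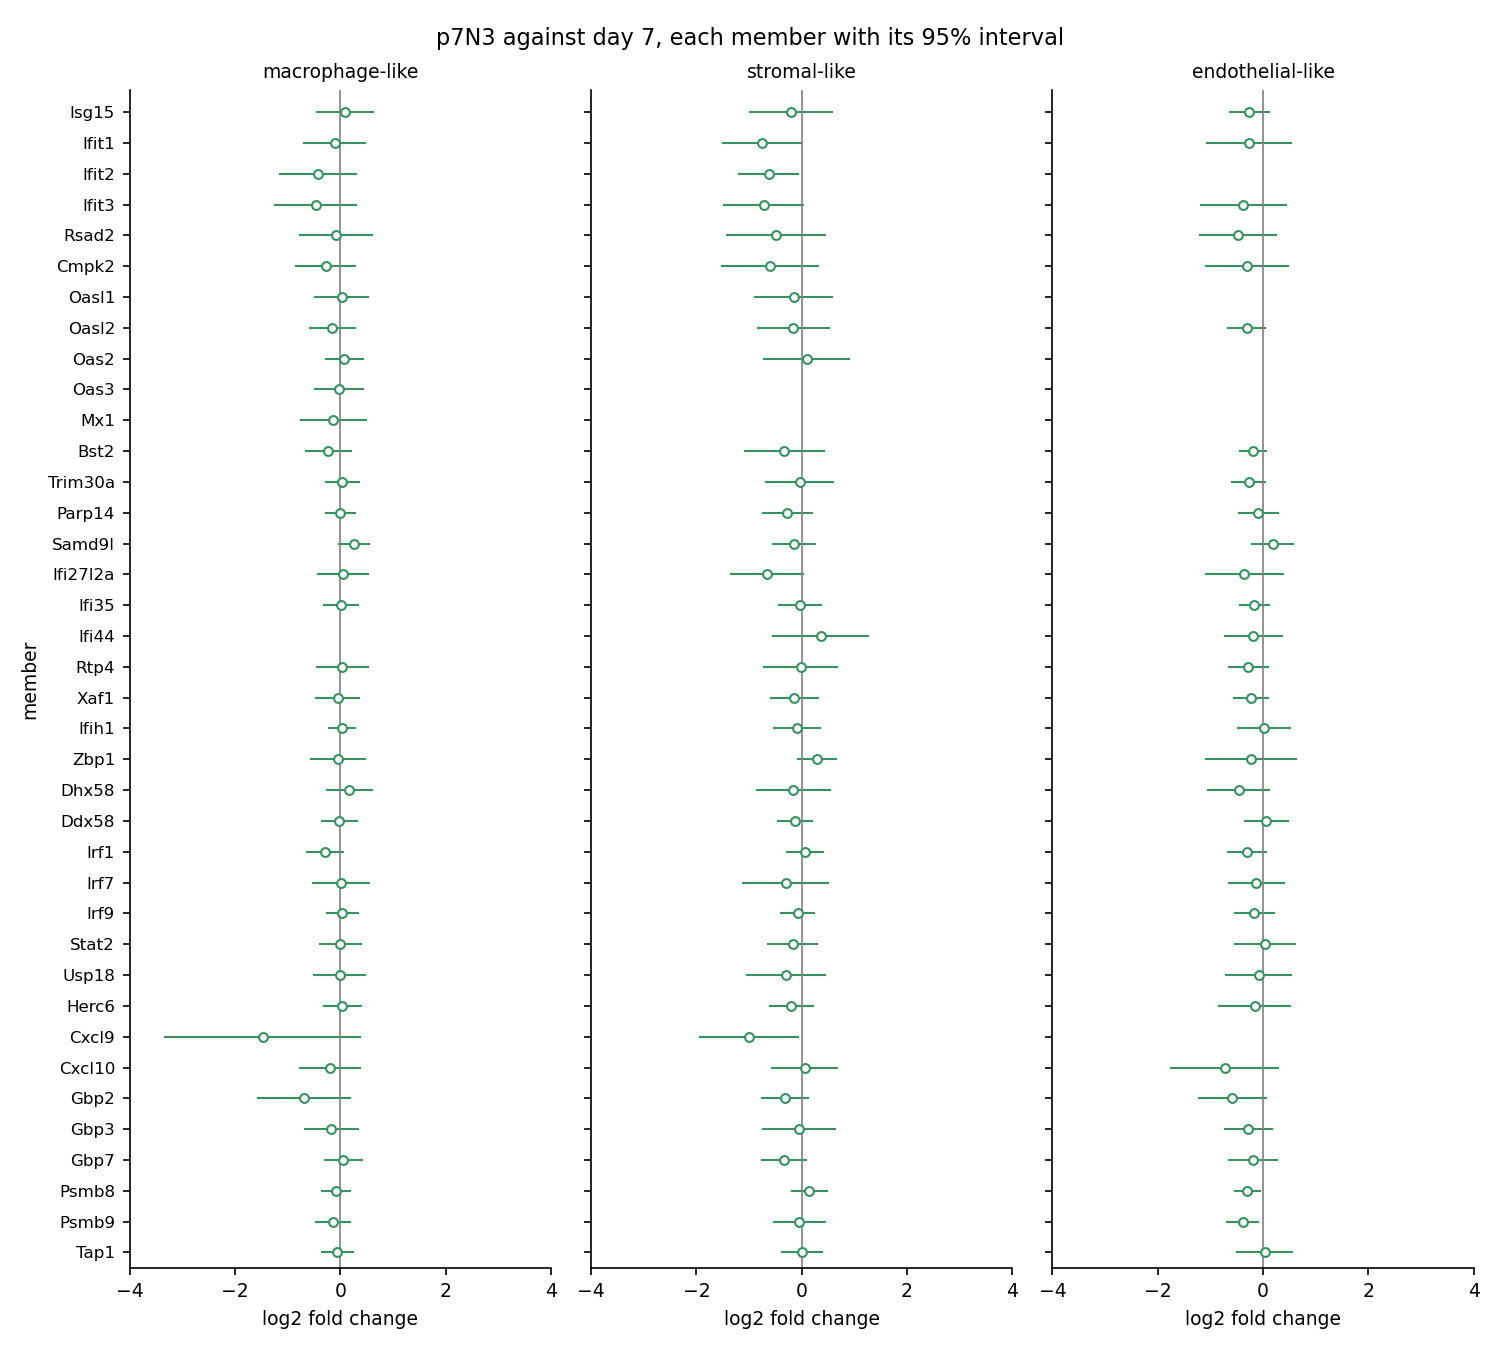
Log2 fold change of each member with p7N3 against day 7 (points) and its 95% interval (lines), in monocyte/macrophage-like, stromal-like and endothelial-like sums. All points are open, which marks an adjusted p of 0.05 or more, and the widest of the intervals named in the text is that of Cxcl9 in monocyte/macrophage-like cells, -3.33 to 0.38.

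The share of cells in which several members were detected was measured with each cell thinned to 1500 UMIs. In endothelial-like cells 29.1% ± 3.0 (SD, n = 4) held UMIs of at least 5 members at day 0, 1.15% at day 3, 10.8% at day 7, 20.9% at day 21 and 9.62% with p7N3. No day 0 library, at 26.8% to 33.3%, overlapped with one of another group. The monocyte/macrophage-like share was 12.4% ± 2.4 at day 0, 14.1% ± 1.8 at day 3, 16.2% ± 5.9 at day 7, 11.1% ± 3.3 at day 21 and 17.7% ± 4.7 with p7N3, with overlap throughout. Stromal-like cells held 0.398% to 1.88% such cells as group means. Plasmacytoid dendritic-like cells, a type known for producing type I interferon, held 36.6% at day 3 (2 libraries), 31.5% at day 7 and 37.5% with p7N3 (2 libraries). In the sums of these groups Bst2 lay between 3059 and 4340 CPM, Psmb8 between 712.3 and 1006 and Irf7 between 151.9 and 456. Isg15 reached at most 141.5 CPM, Ifit1 17.34 and Ifit3 7.123, and Oas2 and Oas3 had no UMI. Which members made up the share in these cells was not tested. Tenocyte-like cells, the lowest class, held 0 to 0.81%, and the stromal-like shares were close to it. The share that free RNA in the droplets gives was not measured. Before thinning, the endothelial-like shares were 66.5% at day 0 and 92.7% at day 3, with medians of 3263 and 20120 UMIs per cell, so that the order of these times followed the depth. Thinning left out 111 endothelial-like, 34 monocyte/macrophage-like and 70 stromal-like cells of day 0, or 11.1%, 8.70% and 5.91% of each. In cluster 1 alone the thinned share was 29.6% at day 0, 51% at day 7 (2 libraries) and 31.9% at day 21, and in cluster 2 alone it was 11.7% at day 0 (2 libraries), 0 at day 3, 8.14% at day 7 and 6.17% at day 21. The 2 day 7 libraries of cluster 1 are those whose sums were shallow, with 75 UMIs of Isg15 in all, so that the 51% rests on little material.

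**Figure D5:**
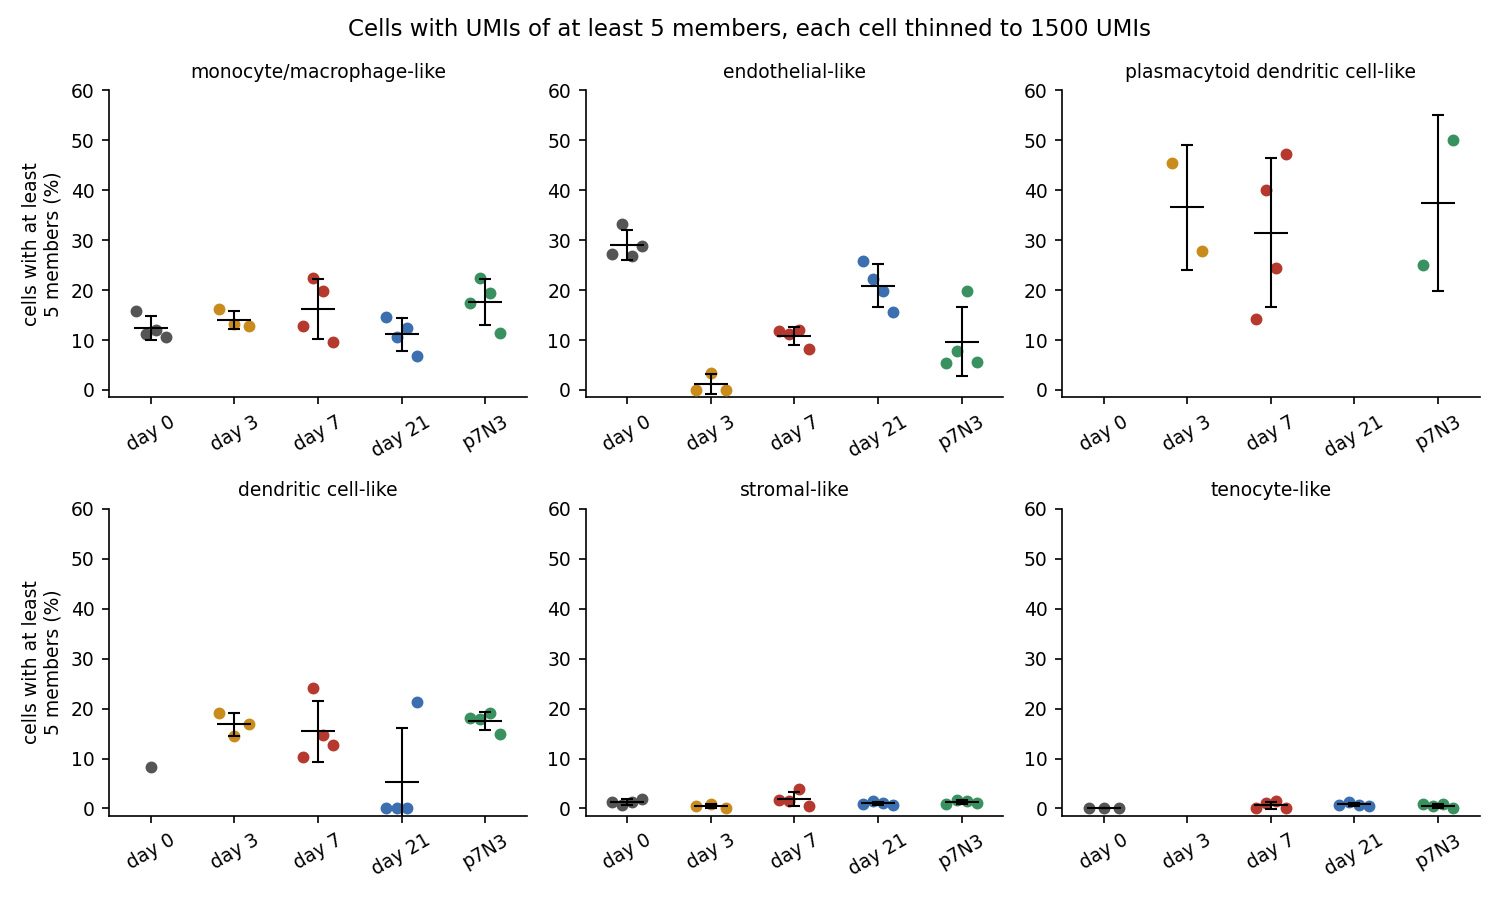
Percent of cells with UMIs of at least 5 members after thinning each cell to 1500 UMIs, on the vertical axis, per library (points) and group (bar, mean ± SD), in 6 cell classes. Endothelial-like cells stand highest at day 0 with 26.8% to 33.3%, and monocyte/macrophage-like groups overlap.

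Members rose and fell together most in endothelial-like cells. Over the 19 libraries, which share depth and group structure, the median correlation r of a member with the mean of the others was 0.897 in endothelial-like sums, 0.566 in monocyte/macrophage-like and 0.665 in stromal-like sums. Isg15 (0.975), Ifit3 (0.96) and Gbp7 (0.959) were closest to the rest in endothelial-like sums, and Oas3 (-0.593) and Zbp1 (-0.479) farthest. Xaf1 (0.884) and Ifi35 (0.812) were closest and Irf1 (-0.15) farthest in monocyte/macrophage-like sums. Outside the members and the pathway list, the genes whose log CPM was most like the monocyte/macrophage-like score over the 19 libraries were Pyhin1 (r = 0.822), H3f3b (0.732), Slfn1 (0.718), Selk (0.713) and Isg20 (0.694). Over the 18 time and peptide comparisons of the 3 classes, Tap1 was tested in 18 and called in none, Oasl1 and Mx1 were tested in 6 and 5 and called in none of these, and Isg15 was called higher in 4 and lower in 4.

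The interferon ligand genes that were read had few UMIs in these cells, with most of Ifng in T/NK lymphocyte-like cells. Of the interferon alpha genes only Ifna1, Ifna2, Ifna4 and Ifna5 were read. Ifnb1 had 13 UMIs in 8 of 39541 cells, 11 of them in 7 monocyte/macrophage-like cells. Ifna2 and Ifnk had 1 UMI each, and Ifna1, Ifna4, Ifna5, Ifne, Ifnl2 and Ifnl3 had 0. Ifng had 167 UMIs in 86 cells, with 123 UMIs in 50 of 549 T/NK lymphocyte-like cells. No ligand had enough counts to be tested. Of the receptor genes, 5 of 5 tested were higher in monocyte/macrophage-like cells at day 7 than at day 0, when 18.3% of all genes were. At day 3, 4 of 5 were, against 24.5% of all genes, with Ifngr1 at 1.12 ± 0.11 (SE, adjusted p = 3.6e-06) and Ifngr2 at 1.24. In stromal-like cells Ifngr1 was lower, at -2.09 at day 7 and -1.31 at day 21, when 26.1% and 16.5% of all genes were.

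A list of 48 other interferon-induced genes, 45 of them in the tables, was read in the same fits. In endothelial-like cells 3 of 37 were higher and 30 lower at day 3 than at day 0, when 29.2% and 28.7% of all genes were. At day 7 these were 3 and 26 of 37, against 29.4% and 29.3%, and at day 21 they were 1 and 8 of 37, against 14% and 12.8%. Ifit3b (-4.49), Slfn5 (-3.17), Ifi203 (-3.09) and Cd274 (-2.94), which encodes PD-L1, fell most at day 3. Ifit3 and Ifit3b are near-identical copies, and reads that match both are not told apart by these counts. Between day 7 and day 21, 19 of 37 rose and 1 fell, against 14.9% and 13.1% of all genes, with Cd274 at 2.05 and the class I gene H2-K1 at 1.4. In monocyte/macrophage-like cells 10 of 43 were higher and 1 lower at day 7 than at day 0, against 18.3% and 17% of all genes, with Cd274 at 2.17. Between day 7 and day 21 of that class 0 of 44 rose and 9 fell, against 7.28% and 6.83%, with Ifi205 at -2.17 and Ms4a4c at -1.34. In stromal-like cells 6 of 35 were higher and 20 lower at day 3 than at day 0, against 33.3% and 32.9% of all genes, led by Slfn2 (4.9) and Ms4a4c (4.5) among the higher and Slfn5 (-3.56) and Ifi205 (-3.34) among the lower. Summed monocyte/macrophage markers in these sums lay between 205.4 and 313.5 CPM at day 0 and between 2014 and 2166 at day 3. Their part in these rises was not tested. With p7N3 0 genes of this list passed by edgeR in the 3 classes.

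Pericyte/smooth muscle-like cells (1905 cells), which wrap the vessels, moved in a different order from the endothelial-like cells. At day 7 against day 0, 6 of 22 members were higher and 1 lower, when 25% and 21.7% of all genes were, with the antigen processing genes Psmb9 (2.55), Tap1 (2.0) and Psmb8 (1.97) among the higher and Irf1 (-2.15) lower. Rtp4 (2.03), Bst2 (1.51) and Xaf1 (1.44) were the other higher ones. Between day 7 and day 21, 2 of 25 rose, Cxcl10 (2.4) and Irf1 (1.83), and 11 fell, when 15.9% and 15.4% of all genes did, among them Ifi27l2a (-1.93), Oasl2 (-1.57), Irf7 (-1.53) and Ifit1 (-1.49). From day 3 to day 7, 4 of 24 rose there, Ifit1 (2.78), Xaf1 (1.09), Rtp4 (1.04) and Isg15 (1.02), and 0 fell, when 2.85% and 5.11% of all genes did. At day 3 against day 0, 2 of 6 were higher, Psmb8 (1.42) and Bst2 (0.83), and 2 lower, Irf1 (-1.9) and Isg15 (-1.52), when 28.1% and 29% of all genes were. At day 21 Bst2 (0.94) was the 1 of 8 that was higher and 0 were lower, when 15.8% and 15.9% were. The 16 monocyte/macrophage markers summed in these cells to between 161.8 and 201.8 CPM at day 0, with Fcgr1 and Ms4a7 at 0, between 1618 and 1861 CPM at day 3, between 655.2 and 1642 at day 7 and between 216.1 and 591.2 at day 21, and their part in the result was not tested. The score of this class was 2.88 at day 0, 3.06 at day 3, 3.79 at day 7, 3.25 at day 21 and 3.64 with p7N3. With p7N3 edgeR called 0 of its 28 members, when 0.0106% and 0% of all genes were called higher and lower. An unadjusted p under 0.05 was found for 7 members, and the share of all genes at that limit is not given here.

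Dendritic-like cells (1833 cells) lost Irf7 (-3.21), Oasl2 (-3.12) and Isg15 (-2.67) from day 7 to day 21, 3 of 17 members, while 0 rose, when 1.2% of all genes fell and 2.61% rose. Samd9l (0.95), Psmb9 (0.70) and Psmb8 (0.48), 3 of 32, rose from day 3 to day 7 and 0 fell, when 3.76% and 5.6% of all genes did. In tenocyte-like cells (3319 cells), which line and build the tendon, Ifi27l2a was higher at day 7 than at day 0 (3.49 ± 1.01 (SE, adjusted p = 0.028)), 1 of 20 members, and 0 were lower, when 11% and 5.41% of all genes were. At day 21 it was again the 1 of 26 that was higher (3.43) and 0 were lower, when 8.26% and 3.69% were. Cxcl9 (-2.23), Psmb8 (-1.72), Psmb9 (-1.17) and Tap1 (-0.76) fell there between day 7 and day 21 and Ifi35 (0.48) rose, of 29 tested, when 15.2% and 16.3% of all genes did. The 16 monocyte/macrophage markers summed in tenocyte-like cells to between 331.4 and 1082 CPM at day 0, with Fcgr1 at 0, between 765.6 and 1199 at day 7 and between 172.4 and 445.4 at day 21, and their part in these results was not tested. With p7N3 edgeR and DESeq2 called 0 of 23 members in tenocyte-like cells, when 0.00963% of all genes were called higher and 0.0289% lower with the peptide. Of these members 1 had an unadjusted p under 0.05, and the share of all genes at that limit is not given here.

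Irf1 was also lower than at day 0 in the Schwann-like cells of day 7 (-2.89) and day 21 (-2.28). The same held in the lymphatic endothelial-like cells of day 7 (-3.02), where day 0 had 2 libraries. Irf1 was the 1 of 10 lymphatic members that was lower, when 9.12% of all genes were higher and 11.8% lower. In Schwann-like cells Bst2 was higher at day 7 (1.77), so that 1 of 2 members tested rose and 1 fell, when 29.4% and 27.3% of all genes did, and at day 21 Irf1 was 1 of 3, when 10.9% and 12.6% were higher and lower. Between day 7 and day 21 Xaf1 rose there (0.94), 1 of 7, when 14.4% of all genes rose and 13.8% fell. Bst2 (-0.62) and Ifi27l2a (-1.78) fell over the same time in lymphatic endothelial-like cells, 2 of 5, when 5.85% and 3.94% rose and fell, 2 calls that DESeq2 did not make. No member was called by edgeR or DESeq2 between day 0 and day 21 in lymphatic endothelial-like cells, of 7 tested (0.652% and 1.13% of all genes higher and lower), between day 3 and day 7 in granulocyte-like cells, of 26 (2.04% and 3.77%), or in plasmacytoid dendritic-like cells, of 9 (0% and 0.153%). The same held for day 7 against day 0 in T/NK lymphocyte-like cells, of 11 (5.12% and 6.29%), and for day 21 against day 0 in muscle-like cells, of 1 (0.135% and 0.0337%). In each of these comparisons 2 members had an unadjusted p under 0.05, except 1 in muscle-like cells. With p7N3 0 members and 0% of genes were called by edgeR in granulocyte-like, dendritic-like, plasmacytoid dendritic-like, T/NK lymphocyte-like and lymphatic endothelial-like cells, DESeq2 called 0 members, and 1 or 2 members in each had an unadjusted p under 0.05. For the counts at an unadjusted p in these smaller classes the shares of all genes are not given.

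Summed over all cells of a library, where fewer cells of a type and less RNA per cell cannot be told apart, 14 of 38 members were higher and 18 lower at day 3 than at day 0, when 37.3% of all genes were higher and 37.3% lower. At day 7 against day 0, 6 were higher and 22 lower, when 32.1% and 31.4% of all genes were, and at day 21, 1 of 36 was higher and 31 lower, when 25.9% and 25.9% were. With p7N3 against day 7 edgeR called 0 of 38 members and 0% of all genes, and 0 members had an unadjusted p under 0.05. At day 7 against day 3, 2 of 38 were higher and 21 lower, when 29.6% and 27.6% of all genes were, and at day 21 against day 7, 1 was higher and 16 were lower, when 22% and 22.1% were.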

How the data were processed

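For 19 droplet libraries the authors deposited raw UMI counts of each gene in each barcode, made with Cell Ranger. The file of day 0 replicate 1 held 737280 barcodes, 373619 of them with a UMI, and the other files held between 614 and 3786. Cells of that library were therefore chosen only by the limits on genes and mitochondrial share given below. The submitters' notes name Cell Ranger and Seurat without versions, and GRCh38 for 15 samples against mm10 for 4, whereas the study's methods name mm10 and every gene identifier in the files is a mouse one. A barcode was kept as a cell from 500 genes upward if its mitochondrial share of UMIs did not exceed 25%, and doublets were not removed. Cells were clustered together with scanpy 1.11.5 (2000 variable genes without the members and pathway genes, 30 components, 20 neighbours, Leiden resolution 0.8) and clusters were named from marker lists, so names were rebuilt and are not the study's. UMIs were summed per library and class with at least 10 cells and compared between 2 groups with edgeR 4.0.16 (quasi-likelihood, TMM factors, filterByExpr, Benjamini-Hochberg over all genes tested, threshold 0.05, at least 2 libraries per group). Fold changes are on TMM-normalised CPM, and levels per library are CPM of all UMIs of the class. Intervals are at 95%, a sum without a UMI allows up to 3, and both cover counting error or the spread of libraries only.

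The members and lists were chosen with earlier results of these data known. Values in every library are given for Isg15, Ifit3, Irf7, Usp18, Rsad2, Bst2, Ifi27l2a, Cxcl9, Cxcl10, Irf1, Gbp2 and Psmb8 where a result turned on them. In each comparison up to 6 members called in each direction were named by size and up to 3 that did not pass by level, with up to 4 genes of the pathway list in each direction and the 5 genes most like the score. Zbp1 in stromal-like cells, Ddx58 and the genes of single clusters were picked after their values were seen. Alternatives to these fits were DESeq2 1.42.0, RLE factors, no low-count filter, a block for the replicate number, leaving out 1 library at a time (later also for Ifi27l2a in cluster 0), replicates 1 to 3 alone, 1 fit over 5 groups, sums of 30 or more cells, a mitochondrial limit of 10%, removal of the top 3.9% of doublet scores, all genes as variable genes and Leiden resolution 2. For the score they were a pseudocount of 10, sums thinned to 200000 UMIs, TMM-normalised CPM and the log2 of the summed CPM, and for shares 3 or 8 members and 1000 or 3000 UMIs. Python 3.11.15, numpy 2.4.6, scipy 1.17.1, scikit-learn 1.9.0, R 4.3.3 and limma 3.58.1 were used, and the fits were tested on simulated data.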

Additional observations from a re-analysis of the deposited data

Results flagged for a closer look

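In 8 of 156 groups of 4 libraries, for 12 members and the score in 3 classes, 1 library stood apart from the others by Dixon's criterion, which chance gives in about 1 of 20 groups. In monocyte/macrophage-like cells they were Rsad2 in day 0 replicate 3, low at 6.50 CPM against 14.0 to 15.6, and Cxcl9 in day 21 replicate 1, high at 28.5 CPM against 0 to 1.64. In stromal-like cells they were Usp18 in day 7 replicate 3 at 8.99 CPM, Rsad2 in p7N3 replicate 3 at 2.67 CPM and Cxcl9 in day 21 replicate 1 at 19.2 CPM, all high. In endothelial-like cells Cxcl9 in day 7 replicate 2 at 27.7 CPM, Gbp2 in the same library at 114 CPM against 38.3 to 45.0, and Cxcl10 in day 0 replicate 1 at 13.0 CPM were high.

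Cxcl9, a target of interferon gamma, was high in day 21 replicate 1 in both monocyte/macrophage-like and stromal-like sums, and the libraries of these sums are the same.

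The change from day 0 to day 7 differed between the stromal-like and the monocyte/macrophage-like class for 11 members, by the interaction in edgeR. The difference of the log2 fold changes, monocyte/macrophage-like minus stromal-like, was 2.86 for Ifit2, 2.15 for Cmpk2, 1.85 for Usp18, 1.77 for Ifih1, 1.77 for Ifi27l2a, 1.74 for Ifit3, 1.64 for Rsad2, 1.59 for Ifit1, 1.26 for Ifi35, 1.08 for Psmb9 and 0.565 for Psmb8. The calls of Rsad2, Ifit3 and Psmb8 were lost without at least 1 of the libraries. The clusters that made up each class also differed between these times, and their part in the result was not tested.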

How the results depend on the processing

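Of the counts of members called, 210 of 239 values under other settings and 140 of 162 with 1 library left out were within 1.5 times the value reported. The score kept its direction and size in 79 of 90 comparisons under other settings, and the shares of cells in 35 of 72. The cause of each change given here was not tested, other than fewer cells or libraries where a setting removes them. Monocyte/macrophage-like sums were shallowest at day 0 and endothelial-like sums at day 3, with 27 to 29 cells per library, which limits what low members can show there. No result of p7N3 was called under any setting run but 1: without the filter on low counts 1 member, Ifi27l2a, differed between monocyte/macrophage-like and stromal-like effects (0 reported).

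In monocyte/macrophage-like cells the number of members called at day 3 against day 0 was 7 in a single fit of all 5 groups (11 reported). At day 7 against day 0 it was 18 without the filter and 17 with the replicate number as a block (10). At day 7 against day 3 it was 8 without the filter, 13 with the block, 12 with replicates 1 to 3 only and 2 with all genes as variable genes (5). At day 21 against day 7 it was 13 with DESeq2, 19 without the filter, 14 with the block, 14 with replicates 1 to 3 only and 16 in the single fit (8). In stromal-like cells at day 21 against day 7 it was 2 with replicates 1 to 3 only and 2 with all genes as variable genes (4). Over all comparisons of the other classes together, the calls of members came to 110 without the filter (49). A member counts there once for each class and comparison in which it was called. The shares of all genes called without the filter are not given.

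Same-numbered libraries did not all deviate together. In 0 of 18 class and comparison pairs was every correlation of their deviations over 0.1, the range being -0.3 to 0.45. A shared number was therefore not taken as a pairing. This rule asks for every number at once, so it cannot show a likeness confined to replicate 4, which was deposited later. For replicate 4 at day 21 against day 7, r was 0.45 (stromal-like), 0.294 (monocyte/macrophage-like) and 0.0698 (endothelial-like). At day 7 against day 0 its r was -0.0543, -0.0373 and 0.0101 in the same order. Why replicate 4 differed between these comparisons was not tested. The block moved no count other than those given by over 1.5 times.

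With 1 library left out the counts ranged from 5 to 16 in monocyte/macrophage-like cells at day 7 against day 0, 1 to 12 at day 7 against day 3 and 5 to 17 at day 21 against day 7. They ranged from 7 to 19 in stromal-like cells at day 7 against day 3, 0 to 6 at day 21 against day 7, and 4 to 15 in endothelial-like cells at day 7 against day 3.

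Single clusters were tried after the data were seen. In endothelial-like cells cluster 2 alone gave 3 at day 3 against day 0 (29), cluster 1 gave 1 and cluster 2 gave 2 at day 7 against day 0 (28), 3 and 0 at day 21 against day 0 (22), and 0 and 3 at day 21 against day 7 (17). Cluster 0 alone gave 7 at day 7 (14) and 2 at day 21 (9) against day 0 in stromal-like cells. Cluster 7 alone gave 6 at day 3 (11) and 4 at day 21 (7) against day 0, 15 at day 7 against day 3 (5) and 4 at day 21 against day 7 (8).

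Differences in score also moved. The stromal-like difference changed sign when sums were thinned to 200000 UMIs, to 0.0013 at day 7 against day 0 (-0.29) and 0.14 at day 21 against day 0 (-0.25), and the log2 of the summed CPM gave -1.12 and -1.05. At day 3 against day 0 it was -0.44 with a pseudocount of 10, -0.51 thinned, -0.53 with TMM-normalised CPM and -1.63 as the log2 of the sum (-0.72). The monocyte/macrophage-like difference at day 3 was 0.18 with TMM-normalised CPM (-0.07). A pseudocount of 10 gave -1.28 at day 3 (-1.77) and -0.81 at day 7 (-1.02) in endothelial-like cells.

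Shares of cells depended on the number of members and the depth asked for, in percentage points. In monocyte/macrophage-like cells the difference from day 0 with 3 members and with 3000 UMIs was -2.53 and -5.43 at day 3 (1.73), -1.55 and -3.65 at day 7 (3.84) and -11.6 and -12.4 at day 21 (-1.25), and with 3 members it was -10.0 at day 21 against day 7 (-5.1). In stromal-like cells with 3 members, 8 members, 1000 and 3000 UMIs it was -5.72, -0.142, -0.265 and -4.71 at day 3 against day 0 (-0.898). With 3 members and 3000 UMIs it was -3.41 and -1.86 at day 21 against day 0 (-0.234), 5.59 and 5.6 at day 7 against day 3 (1.48), where 8 members gave 0.205, and -3.28 and -2.75 at day 21 against day 7 (-0.813). In endothelial-like cells with 3 members, 8 members and 3000 UMIs it was -45.3, -8.98 and -51.2 at day 3 (-27.9), -30.7, -7.02 and -35.4 at day 7 (-18.3) and -16.9, -4.26 and -18.9 at day 21 (-8.19) against day 0, 14.5, 1.95 and 15.8 at day 7 against day 3 (9.64) and 13.8, 2.77 and 16.5 at day 21 against day 7 (10.1). With 1000 UMIs these were -14.7 at day 3 and -12.5 at day 7 against day 0, 2.17 at day 7 against day 3 and 4.87 at day 21 against day 7.

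Leaving out libraries was not run for the smaller classes or for single clusters other than cluster 0 at day 7 against day 0, and the settings of filtering and clustering of cells, with DESeq2 and the block, were not run for the interactions.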
